A study of Mus musculus with 32 samples.

Results

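E0771 tumours taken from C57BL/6 mice at day 6 after treatment with IgG were set against Ddr1 knockout E0771 tumours taken from C57BL/6 mice at day 4. E0771 cells come from a mammary carcinoma of a C57BL/6 mouse. Ddr1 is the gene of discoidin domain receptor 1, a collagen-binding tyrosine kinase at the cell surface. The comparison holds 9 of the 32 libraries of a series that asked about DDR1 in mammary tumour growth, namely the 4 libraries labelled IgG at day 6 and all 5 labelled knockout at day 4, and it was chosen because both groups are low in mouse Ddr1. A second pair, made up of 4 day 6 tumours given an antibody that the labels describe as directed at the extracellular part of human DDR1 and 4 day 4 tumours of Ddr1 wild-type cells, also in C57BL/6 mice, shares no library with the first and is set beside it. The day 6 labels name a strain, a tumour line and a treatment and give no Ddr1 genotype. Per the series' design text, the day 4 tumours had been grown in Rag1-/- mice, which lack mature T and B cells, before transfer to C57BL/6 mice, and nothing in the sources used here says whether the day 6 tumours had. IgG treatment, day, cell derivative and deposited table all change together between the groups, and passage through another host may change with them, so their parts in any difference cannot be told apart. Whether the libraries of a group came from separate animals is not stated, so p-values measure the spread between these libraries only.

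A transplanted tumour contains carcinoma cells, matrix, vessels and immune cells, and bulk RNA-seq reads all of them as 1 mixture. Cytotoxic T cells recognise peptides held on MHC class I molecules, and the interferon gamma that they and natural killer cells secrete drives antigen presentation, guanylate-binding protein genes and chemokines such as Cxcl9 in neighbouring cells. Neutrophils are drawn in by CXC chemokines, and tumour cells short of oxygen stabilise hypoxia-inducible factors that switch on glycolytic, angiogenic and acid-handling genes.

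The RNA was sequenced from stranded mRNA libraries to 20220028 to 30571406 reads in IgG tumours and 20774531 to 28600639 reads in knockout tumours. Levels are reads per 1000000 (RPM) of each library's own total over 25277 genes, because the day 6 and day 4 tables had been normalized separately. Differences are of log2(RPM + 0.1), IgG minus knockout, so that a positive one is higher in IgG tumours, and they understate the change of weakly expressed genes. Of 14022 genes tested with limma, 2871 (20.5%) were higher and 2161 (15.4%) lower in IgG tumours at a Benjamini-Hochberg adjusted p under 0.05, and 726 and 1162 of them differed by more than 2-fold. Every IgG library stood above every knockout library in 2289 genes and below it in 1733, which is 28.7% of the genes tested. The number of calls fell to 3153 without IgG library 4 and to 2748 without knockout libraries 2 and 4, the highest in adipocyte genes. The first principal component carried 51% of the variance and had all IgG libraries on 1 side and all knockout libraries on the other, with knockout libraries 3 and 5 nearest to the IgG ones. Rescaling moved the balance, since higher genes made up 57.1% of calls with this scaling, 47.8% with TMM, 50.9% with quantile normalization and 39.4% with upper-quartile scaling, which put the median of all genes at -0.06 in place of 0.07. Counts of list members are therefore to be read against these shares, and differences of about 0.1 or less have no direction of their own. The filter for testing was a mean of 0.5 RPM over the libraries compared. A gene under 0.5 RPM in 1 group passed it only through the other group, which sets the direction of its mean level.

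**Figure D1:**
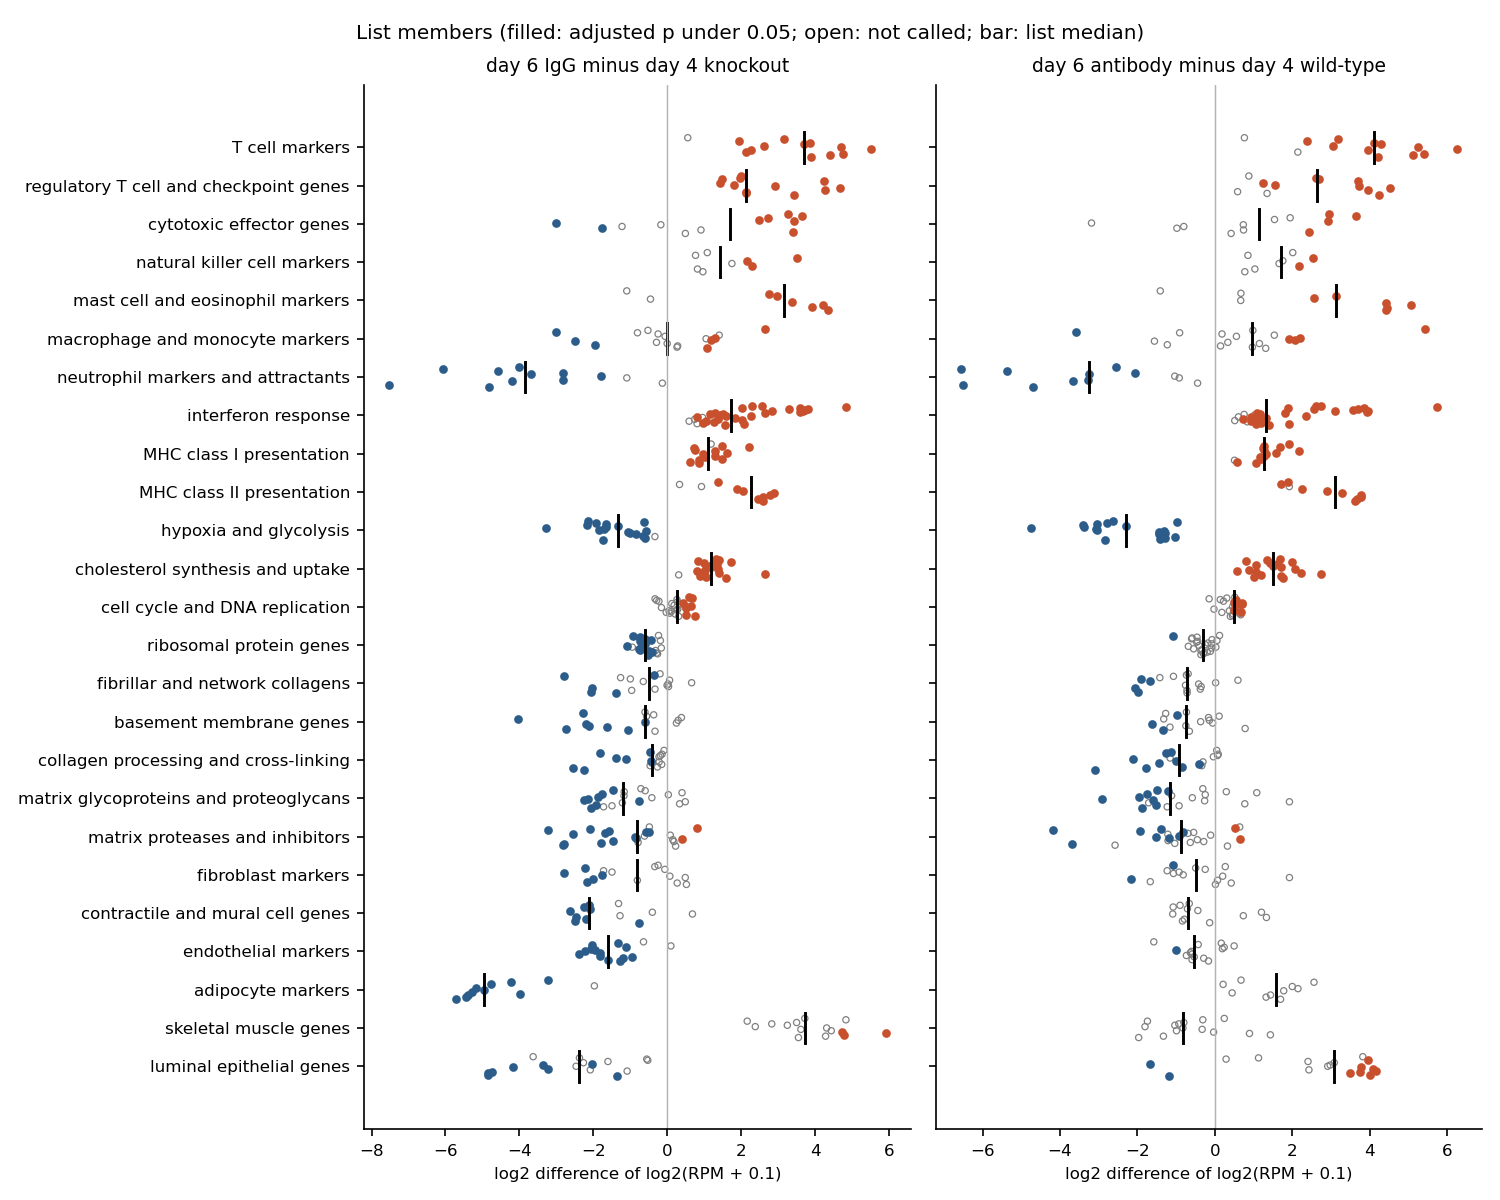
Log2 difference of each tested member of 25 gene lists in IgG minus knockout tumours (left) and antibody minus wild-type tumours (right). Each point is 1 gene, filled where its adjusted p was under 0.05, and the bar is the median of the list. The medians of T cell, interferon, MHC and cholesterol genes lie right of 0 in both panels and those of neutrophil and hypoxia genes left of 0, while the medians of adipocyte, muscle and luminal genes lie on opposite sides of 0 in the left and right panels.

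Short stretches of promoter are shown for 5 genes that carry the interferon, hypoxia and cholesterol results below, since each holds a core motif of the pathway its list is named for. The windows are the 250 bases before the annotated start, from RefSeq on GRCm38.p6, written 5′ to 3′ on the gene's own strand with the motif in capitals on whichever strand it was found. For the interferon-stimulated response element core, GAAANNGAA, they are Gbp5 (chr3:142496684-142496933, plus strand) and Gbp7 (chr3:142530086-142530335, plus strand), whose motifs begin 164 and 52 bases before the start.
Gbp5: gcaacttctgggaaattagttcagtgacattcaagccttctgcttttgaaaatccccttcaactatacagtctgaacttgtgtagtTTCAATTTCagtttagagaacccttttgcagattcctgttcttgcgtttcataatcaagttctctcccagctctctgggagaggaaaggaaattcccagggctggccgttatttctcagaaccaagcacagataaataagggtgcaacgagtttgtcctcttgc
Gbp7: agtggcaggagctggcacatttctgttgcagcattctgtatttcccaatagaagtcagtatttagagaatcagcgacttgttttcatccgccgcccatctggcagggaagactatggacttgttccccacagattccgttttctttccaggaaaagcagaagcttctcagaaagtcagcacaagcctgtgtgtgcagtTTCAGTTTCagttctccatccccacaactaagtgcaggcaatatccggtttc
For the hypoxia response element core, ACGTG, they are Car9 (chr4:43506776-43507025, plus strand) and Ddit4 (chr10:59951771-59952020, minus strand), with motifs 18 and 187 bases before the start.
Car9: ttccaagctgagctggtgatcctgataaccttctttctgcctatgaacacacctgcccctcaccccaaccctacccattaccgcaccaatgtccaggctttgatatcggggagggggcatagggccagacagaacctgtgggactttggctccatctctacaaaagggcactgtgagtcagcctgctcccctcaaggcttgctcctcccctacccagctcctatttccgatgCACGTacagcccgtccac
Ddit4: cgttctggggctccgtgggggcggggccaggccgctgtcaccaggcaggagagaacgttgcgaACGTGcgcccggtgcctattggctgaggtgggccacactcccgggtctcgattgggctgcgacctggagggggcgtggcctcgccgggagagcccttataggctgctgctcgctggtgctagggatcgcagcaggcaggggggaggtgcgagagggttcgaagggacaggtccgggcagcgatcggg
For a sterol regulatory element core, TCACNCCAC, it is Hmgcs1 (chr13:119690101-119690350, plus strand), with the motif 137 bases before the start.
Hmgcs1: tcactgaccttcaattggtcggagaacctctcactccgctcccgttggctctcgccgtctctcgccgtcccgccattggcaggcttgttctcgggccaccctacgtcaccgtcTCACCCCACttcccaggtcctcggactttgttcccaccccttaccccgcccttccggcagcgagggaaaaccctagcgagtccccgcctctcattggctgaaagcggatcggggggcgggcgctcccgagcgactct
A match says only that these letters are present.
The interferon core, searched on both strands, was in 14 of 27 windows of the interferon response list (51.9%) and in 2342 of 32851 windows of all genes (7.13%), in 7 of which a match overlapped another of the 3 motifs. The hypoxia core was in 15 of 25 windows of the hypoxia and glycolysis list (60%) and in 16.6% of all windows, with an overlap in 17 of them. The sterol core was in 1 of 13 windows of the cholesterol list (7.69%) and in 1.05% of all windows, with an overlap in 10 of them. A gene can have more than 1 window, and 23 of 32 interferon, 17 of 19 hypoxia and 11 of 19 cholesterol genes had one.

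Ddr1 (GRCm38 chromosome 17, 35681567 to 35704621, minus strand) was part of the choice of this comparison, since both groups are low in it, so its levels are given as a description with no test. Its level was 16.8, 19.5, 22.1 and 15.9 RPM in IgG tumours, against 30.5, 27.9, 31.0, 29.8 and 49.7 RPM in knockout tumours. The groups did not overlap, and knockout library 5 stood highest. The mean was 18.6 ± 2.8 RPM in IgG tumours and 33.8 ± 8.95 RPM in knockout tumours (SD, n = 4 and 5), a log2 difference of -0.84. The day 4 wild-type tumours had 132 to 175 RPM. These are reads of the mouse gene, and they do not show whether human DDR1 was present.

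Other collagen receptors went both ways. Of the 8 tested beside Ddr1, 3 were higher and 1 lower, against 20.5% and 15.4% of all genes. Ddr2, the related collagen receptor of mesenchymal cells, was 350, 236, 363 and 309 RPM in IgG tumours and 117 to 220 RPM in knockout tumours (log2 difference 0.89, SE 0.19, limma adjusted p = 0.00698). Itga10, an integrin chain for collagen, differed by 1.06 and Lair1, an inhibitory collagen receptor of leukocytes, by 1.51. Mrc2, which takes up collagen for breakdown, ran at 5.72 to 14.7 RPM in IgG tumours and 22.1 to 109 RPM in knockout tumours (log2 difference -2.30, SE 0.47, limma adjusted p = 0.00661). Itga10 overlaps a predicted gene on its own strand, so its reads are uncertain.

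T cell genes were among the largest differences. Of 13 T cell markers tested, 12 were higher in IgG tumours and none was lower, with a list median of 3.70 against 0.07 over all genes. In both groups 9 of the 13 averaged at least 0.5 RPM, and the rest passed the filter through 1 group alone. Cd8a, the coreceptor chain of cytotoxic T cells, stood at 4.08, 41.2, 36.4 and 26.2 RPM in IgG tumours and at 0.389, 0.489, 0.481, 0.397 and 0.0934 RPM in knockout tumours. Library 1 was well below the other IgG libraries, and even so lay above every knockout library. The log2 difference was 5.53 (SE 0.66, limma adjusted p = 0.000595), or 46.1-fold. Cd8a was under 0.5 RPM in every knockout library, so it passed the filter through the IgG group alone, which sets its direction. Cd8b1, its partner chain, and the T cell receptor signalling chains Cd3e and Cd3g differed by 4.69, 4.41 and 4.75, and Cd6, a T cell surface receptor, by 3.88. Cd4, the helper T cell coreceptor, differed less, with 3.6 to 14.2 RPM in IgG tumours and 0.722 to 3.95 RPM in knockout tumours, groups that overlapped (log2 difference 2.28, SE 0.53, limma adjusted p = 0.0103). Tcf7, a factor of naive and memory-like T cells, was the 1 marker that missed the threshold, at 5.90 to 14.6 RPM in IgG and 5.09 to 8.35 RPM in knockout tumours (adjusted p = 0.141). It passed without IgG library 1 (adjusted p = 0.0263). In bulk RNA, fewer cells of a type and less RNA per cell cannot be told apart, here and in each cell type below.

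All 12 tested genes of the regulatory T cell and checkpoint list were higher in IgG tumours, with a median of 2.13. In both groups 8 of the 12 averaged at least 0.5 RPM, and the rest passed the filter through 1 group alone. Pdcd1, which encodes the inhibitory receptor PD-1, was at 2.91, 29.9, 23 and 17.3 RPM in IgG tumours and at 0.735, 0.350, 0.193, 0.795 and 0.374 RPM in knockout tumours. The log2 difference was 4.67 (SE 0.65, limma adjusted p = 0.00131). Pdcd1 averaged just under 0.5 RPM in knockout tumours, so it passed the filter through the IgG group alone. Icos and Ctla4, a costimulatory and an inhibitory receptor of activated T cells, differed by 4.25 and 4.26, and Foxp3, the defining factor of regulatory T cells, by 3.42. Cd274, the gene for the PD-1 ligand PD-L1, reached 64.3, 140, 139 and 132 RPM in IgG tumours and 45.2, 22.6, 21.8, 32.3 and 24.3 RPM in knockout tumours (log2 difference 2.01, SE 0.28, limma adjusted p = 0.00139). Library 1 was again the lowest of the IgG group and above every knockout library. Cxcr6, a chemokine receptor of tissue-resident T cells, was 3.12 to 29.5 RPM in IgG tumours and 0.234 to 1.55 RPM in knockout tumours (log2 difference 4.52).

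Effector genes split within the granzyme family. Of 12 cytotoxic effector genes tested, 6 were higher and 2 lower, and 8 of the 12 averaged at least 0.5 RPM in both groups. Gzmb, the main granzyme of killer T cells, was at 22.6, 62.7, 79.4 and 43.6 RPM in IgG tumours and at 7.53, 7.66, 2.79, 5.05 and 1.87 RPM in knockout tumours (log2 difference 3.41, SE 0.48, limma adjusted p = 0.00139). Prf1, the pore-forming perforin, and Ifng, interferon gamma itself, differed by 2.47 and 3.65, with IgG library 1 at 5.04 and 0.377 RPM inside the knockout range. Without IgG library 2 and knockout library 5, the highest in muscle genes, the adjusted p of Ifng was 0.0505. Gzmd and Gzmg, granzymes of the same gene cluster on chromosome 14, went the other way. Gzmd was 0.692 to 2.10 RPM in IgG tumours and 1.59 to 5.71 RPM in knockout tumours (log2 difference -1.76), and Gzmg was 0 to 0.550 RPM in IgG and 0.374 to 4.97 RPM in knockout tumours (log2 difference -3.00). Both lost their call without knockout libraries 2 and 4 (adjusted p = 0.0723 and 0.0732), and reads of such close relatives are uncertain. Gzma was 5.28 to 10.4 RPM in IgG and 2.85 to 10.3 RPM in knockout tumours, with no call (adjusted p = 0.337).

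Of 8 natural killer cell genes tested, 3 were higher and none lower. Klrc1 and Klrk1, receptors of natural killer cells that cytotoxic T cells also carry, differed by 3.5 and 2.31, and Klre1 by 2.15. The count was 1 without IgG library 4 and 5 without IgG library 1. Klre1 lost its call in 9 of 24 alternative analyses. Jchain, which joins antibody chains in plasma cells, was at 1.68, 30.6, 8.70 and 5.60 RPM in IgG tumours and 0 to 0.981 RPM in knockout tumours (log2 difference 4.57, SE 0.93, limma adjusted p = 0.00629). Of the other 5 tested members of the B cell and plasma cell list, 1 was called higher.

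**Figure D2:**
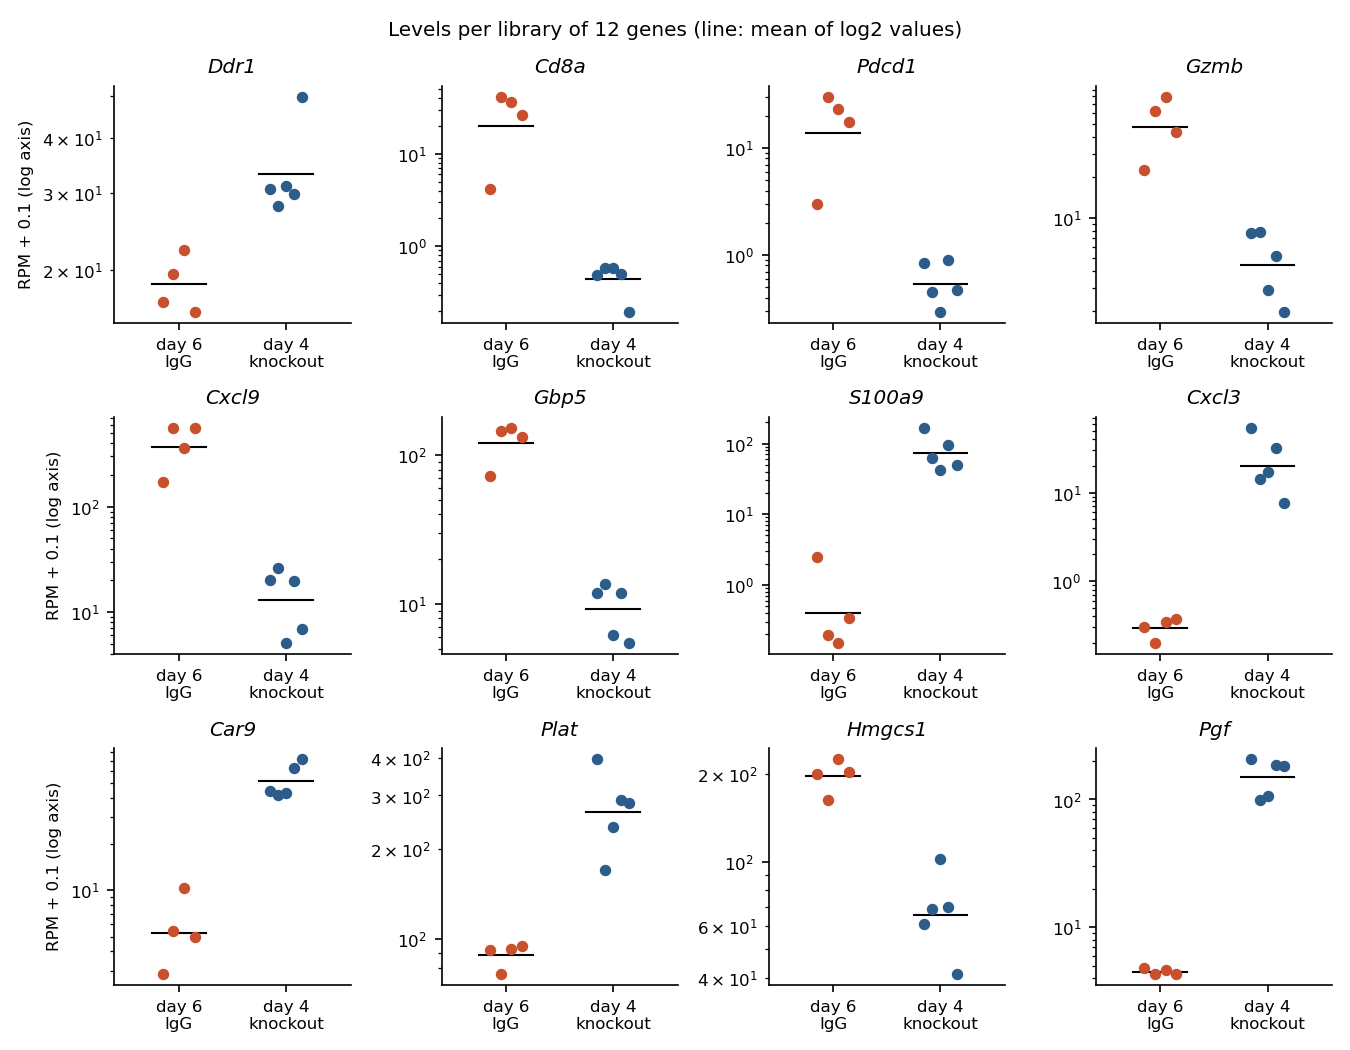
Levels of 12 genes as RPM + 0.1 on log axes, with 1 point per library and a line at the mean of the log2 values, for day 6 IgG tumours (left of each panel) and day 4 knockout tumours (right). The groups do not overlap in any panel, but some of these genes were named by a rule that asks for this. Of all genes tested, 28.7% did not overlap. IgG library 1 is the lowest of its group for Cd8a, Pdcd1, Gzmb, Cxcl9, Gbp5 and Car9.

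The interferon genes whose promoters are shown above were higher in IgG tumours together with most of their list. Of 32 interferon response genes tested, 27 were higher and none lower, with a median of 1.72. Gbp5, a guanylate-binding protein, stood at 72.2, 145, 153 and 132 RPM in IgG tumours and at 11.8, 13.5, 6.11, 11.8 and 5.33 RPM in knockout tumours, which do not overlap. Gbp5 differed by 3.72 (SE 0.33, limma adjusted p = 0.000153), Gbp6 by 3.81, Gbp7 by 3.30 and Gbp2 by 3.6. Their family member Gbp2b had 2.67, 49.5, 22.4 and 55.3 RPM in IgG tumours and 0.0433, 0.0350, 0, 0.0795 and 0 RPM in knockout tumours, where it rested on 4 reads in all. Its fitted difference of 7.31 (SE 0.79) was the largest rise that the naming rule picked, and it depends on the pseudocount. These genes are close in sequence, and Gbp2, Gbp2b, Gbp5 and Gbp7 lie near each other on chromosome 3, so single Gbp values are uncertain, as is that of Gbp6, which overlaps a predicted gene on its own strand.

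Cxcl9, a chemokine for T cells that interferon gamma induces, was at 170, 561, 361 and 557 RPM in IgG tumours and at 19.9, 26.0, 4.96, 19.7 and 6.77 RPM in knockout tumours. The log2 difference was 4.85 (SE 0.54, limma adjusted p = 0.000455). Cxcl10, its relative, differed by 2.30, at 95.4 to 155 RPM in IgG and 14.2 to 57.4 RPM in knockout tumours. Knockout libraries 3 and 5 were the lowest of the 9 for the list as a whole, in which the summed level was 4165 to 6241 RPM in IgG tumours and 746 to 1991 RPM in knockout tumours.

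Antigen presentation followed. Of 14 MHC class I presentation genes, 13 were higher and none lower, with a median of 1.11. Nlrc5, the activator of class I genes, was at 129, 164, 241 and 190 RPM in IgG tumours and at 50, 37.5, 40.8, 43.7 and 24.1 RPM in knockout tumours (log2 difference 2.21, SE 0.23, limma adjusted p = 0.000313). Erap1, which trims peptides for class I molecules, differed by 1.49 with a narrow spread (SE 0.12), and the peptide transporter chain Tap1 by 1.49. B2m, the light chain of all class I molecules, was 3863 to 5156 RPM in IgG tumours and 1730 to 3068 RPM in knockout tumours. The count was 8 without IgG library 3 and 7 without IgG library 2 and knockout library 5.

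Of 10 MHC class II presentation genes, 8 were higher and none lower, with a median of 2.26. H2-Aa, a class II chain, ran at 293, 1388, 689 and 1187 RPM in IgG tumours and at 139, 270, 60.4, 270 and 52.1 RPM in knockout tumours (log2 difference 2.59, SE 0.61, limma adjusted p = 0.0112). IgG library 1 lay just above the highest knockout libraries, 2 and 4. Cd74, the invariant chain, differed by 2.77, H2-DMa and H2-DMb1, which load peptide, by 2.05 and 1.88, and Ctss, a protease of the same pathway, by 1.38. H2-M2, a class I-like gene of the MHC region, was at 11.7 ± 7.57 RPM in IgG tumours and 0.246 ± 0.304 RPM in knockout tumours (SD, n = 4 and 5). It passed the filter through the IgG group alone.

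Cadm1, an adhesion molecule, showed 48.2, 68.7, 34.2 and 71.3 RPM in IgG tumours and 3.85, 2.27, 2.45, 3.22 and 1.26 RPM in knockout tumours. Among the 12 rises picked by size it had the smallest standard error (log2 difference 4.39, SE 0.33, limma adjusted p = 7.78e-05). IgG library 1, low in T cell genes, was not the lowest there.

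Neutrophil genes were lower in IgG tumours. Of 12 tested neutrophil markers and attractants, 10 were lower and none higher, with a median of -3.85. Only 6 of the 12 averaged at least 0.5 RPM in both groups, and the rest passed the filter through 1 group alone. S100a9, a calcium-binding protein abundant in neutrophils, was at 2.40, 0.0981, 0.0495 and 0.241 RPM in IgG tumours and at 167, 61.9, 42.7, 95.2 and 49.5 RPM in knockout tumours. The difference was -7.52 (SE 0.76, limma adjusted p = 0.00027), with IgG library 1 above the other IgG libraries and still far below every knockout library. S100a8, its partner, differed by -4.82. The attractants Cxcl2 and Cxcl3, ligands of a neutrophil chemokine receptor, differed by -4.58 and -6.07. Cxcl3 was at 0.206, 0.0981, 0.247 and 0.275 RPM in IgG tumours and at 54.1, 14.3, 16.9, 31.8 and 7.52 RPM in knockout tumours. Ppbp, another member of this family, was at most 0.377 RPM in IgG tumours and at least 19.6 RPM in knockout tumours (log2 difference -7.05, SE 0.41, limma adjusted p = 1.68e-05). Cxcl3 and Ppbp were under 0.5 RPM in every IgG library, so both passed the filter through the knockout group alone.

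Of 17 macrophage and monocyte markers, 4 were higher and 3 lower, with a median of 0.00. These counts are near the 20.5% and 15.4% of all genes. Marco, a scavenger receptor, was 4.80 to 16.7 RPM in IgG tumours and 0.481 to 4.69 RPM in knockout tumours (log2 difference 2.66). Arg1, arginase of suppressive myeloid cells, was at 10, 45.4, 69.3 and 17.6 RPM in IgG tumours and at 454, 139, 193, 280 and 152 RPM in knockout tumours (log2 difference -3.01, SE 0.55, limma adjusted p = 0.00425). Cd14, a receptor for lipopolysaccharide, differed by -1.95. When IgG library 2, IgG library 4 or knockout library 5 was left out, 1 member was higher. Of 10 dendritic cell markers, 1 was higher, namely Xcr1, the chemokine receptor of cross-presenting dendritic cells, at 1.10 to 6.25 RPM in IgG tumours and 0.187 to 0.994 RPM in knockout tumours (log2 difference 2.72).

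Mast cell proteases formed a further group. Of 8 mast cell and eosinophil markers tested, 6 were higher and none lower, with a median of 3.16. Mcpt4, a mast cell protease, was at 6.72, 42.0, 67.8 and 153 RPM in IgG tumours and at 1.47, 11.6, 1.93, 4.49 and 0.234 RPM in knockout tumours (log2 difference 4.21, SE 1.07, limma adjusted p = 0.0149). The groups overlapped, IgG library 4 being the highest and IgG library 1 lying below knockout library 2. Cpa3, the mast cell carboxypeptidase, and Fcer1a, a chain of the high-affinity IgE receptor, differed by 4.34 and 2.96. The count was 2 without IgG library 4.

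Cytokines had no common direction. Of 21 inflammatory cytokines and chemokines, 6 were higher and 6 lower, against 20.5% and 15.4% of all genes. Csf1, the growth factor of macrophages, was at 515, 417, 546 and 401 RPM in IgG tumours and at 214, 205, 231, 181 and 183 RPM in knockout tumours (log2 difference 1.21, SE 0.12, limma adjusted p = 0.000258), and Tnf differed by 1.75. Lif, a cytokine of the interleukin 6 family, was at 3.05, 3.01, 2.82 and 4.09 RPM in IgG tumours and at 45.2, 13.8, 16.9, 30.5 and 18.6 RPM in knockout tumours (log2 difference -2.78, SE 0.33, limma adjusted p = 0.000564). Cxcl12, a chemokine of stromal cells, differed by -3.00, at 7.78 to 24.6 RPM in IgG and 38.5 to 209 RPM in knockout tumours. Among 13 complement genes, 2 were higher, C2 by 1.36 and C1rl by 0.58, and 3 were lower, against the same shares of all genes. Cfd, the complement factor that adipocytes make, was at 1.14 to 16.2 RPM in IgG and 10.8 to 2527 RPM in knockout tumours. No complement gene was lower without IgG library 1 or 3, and 1 was without IgG library 4 or knockout library 1, 2 or 4. C2 overlaps a predicted gene on its own strand.

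**Figure D3:**
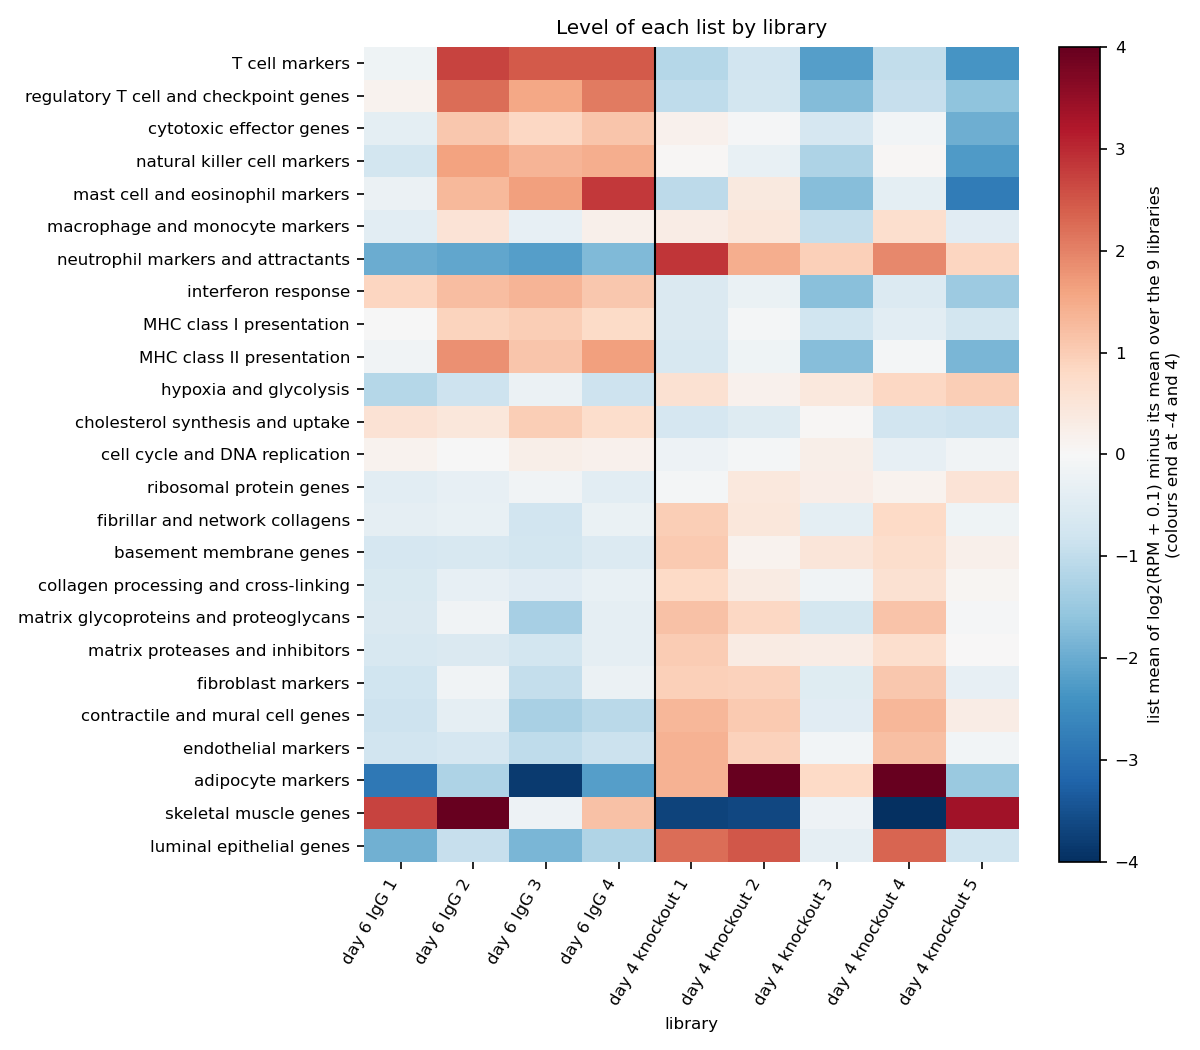
Level of each of 25 gene lists in each of the 9 libraries, as the list's mean of log2(RPM + 0.1) minus its mean over the 9 libraries. Red is above and blue below that mean, colours end at -4 and 4, and the line parts IgG from knockout libraries. Neutrophil and hypoxia lists are blue in every IgG library, T cell genes are weaker in IgG library 1 than in the other IgG libraries, the muscle list overlaps between the groups, and the adipocyte list is highest in knockout libraries 2 and 4.

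Hypoxia genes, including Car9 and Ddit4 with the promoters printed above, were lower in IgG tumours. Of 19 hypoxia and glycolysis genes, 17 were lower and none higher, with a median of -1.33. Car9, a carbonic anhydrase that handles acid, was at 2.74, 5.30, 10.2 and 4.88 RPM in IgG tumours and at 44.6, 41.4, 42.7, 62.2 and 71.9 RPM in knockout tumours, and the groups lie far apart. The difference was -3.28 (SE 0.33, limma adjusted p = 0.000268), or 9.69-fold lower. Ddit4, an inhibitor of growth signalling induced by low oxygen, differed by -2.16 and Ndrg1 by -1.33. Slc2a1, the main glucose transporter, was 276 to 576 RPM in IgG and 752 to 1882 RPM in knockout tumours. Slc2a1 differed by -1.73, the angiogenic factor Vegfa by -1.72 and Ldha, lactate dehydrogenase, by -1.06. IgG library 3 was the highest of its group for Car9, Slc2a1 and Vegfa, and knockout library 5 the highest of the other.

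Pgf, placental growth factor, an angiogenic relative of Vegfa, had the smallest standard error of the 12 falls picked by size. Its level was 4.66, 4.22, 4.55 and 4.19 RPM in IgG tumours and 208, 99.8, 107, 187 and 183 RPM in knockout tumours. It differed by -5.06 (SE 0.23, limma adjusted p = 3.14e-06), or 33.3-fold lower. Ghrh, growth hormone-releasing hormone, was all but absent from IgG tumours, with 7 reads in the 4 libraries and 0.0343 to 0.0981 RPM, and was at 17.4 to 30.8 RPM in every knockout tumour (log2 difference -7.15, SE 0.26, limma adjusted p = 1.18e-06). Ghrh passed the filter through the knockout group alone, which sets its direction, and its fitted size depends on the pseudocount.

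Genes for making and taking up cholesterol rose as a block in IgG tumours. Of 19 tested, 18 were higher and none lower, with a median of 1.18, and Mvk missed the threshold. Hmgcs1, an early enzyme of the pathway whose promoter is shown above, was at 200, 163, 225 and 203 RPM in IgG tumours and at 60.9, 68.5, 102, 69.7 and 41.0 RPM in knockout tumours. Knockout library 3 was the highest of its group and lay below every IgG library. The mean was 198 ± 25.5 RPM in IgG and 68.3 ± 21.8 RPM in knockout tumours (SD, n = 4 and 5; log2 difference 1.58, SE 0.22, limma adjusted p = 0.00132). Sc5d, a late enzyme, differed by 1.22 and Idi1, which isomerises the isoprenoid unit, by 2.65. Each of the 6 scalings and count models called 18 members higher, and 17 were called higher without knockout libraries 2 and 4.

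Growth and stress lists moved little. Of 25 cell cycle and DNA replication genes, 8 were higher and none lower, but 3 were higher and 2 lower with upper-quartile scaling and with edgeR, and 3 to 5 were higher without IgG library 1, 3 or 4 or knockout library 4. Ccnd1, cyclin D1, was at 779, 624, 791 and 766 RPM in IgG tumours and at 464, 452, 533, 424 and 438 RPM in knockout tumours (log2 difference 0.68, SE 0.10, limma adjusted p = 0.00197). Top2a, a DNA topoisomerase of dividing cells, differed by 0.74 and the mitotic motor Kif11 by 0.65. Of 17 unfolded protein response genes, 1 was higher (Herpud1, by 0.50), and Hspa5, the chaperone of the endoplasmic reticulum, was 1315 to 1572 RPM in IgG and 1139 to 1383 RPM in knockout tumours with no call. Ribosomal protein genes went down together, 17 of 24 lower and none higher, with a median of -0.61. Rpl32 was at 340 to 395 RPM in IgG and 560 to 1058 RPM in knockout tumours (log2 difference -1.08, SE 0.16, limma adjusted p = 0.00168), and Rplp0 differed by -0.69. The count was 10 without IgG library 1 and 11 without IgG library 4.

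The p53 target genes were mixed, 5 higher and 2 lower of 14, against 20.5% and 15.4% of all genes. Their median changed sign under upper-quartile scaling. Cdkn1a, the cell cycle inhibitor p21, was 145 to 214 RPM in IgG and 273 to 480 RPM in knockout tumours (log2 difference -0.91), Phlda3 differed by -0.66 and Ccng1 by 0.84. Without knockout library 5, IgG library 3 or IgG library 4, 3, 3 and 2 were higher. Of 21 immediate early genes, 3 were higher and 4 lower, near the 20.5% and 15.4% of all genes. Ier3 differed by -1.14, Nr4a2 by 1.31 and Klf6 by 0.76, and the count of lower genes was 1 without IgG library 1 or 2 and 2 without IgG library 3 or 4 or knockout library 1, 4 or 5. Among 10 heat shock genes, 2 were higher and 2 lower, also near those shares of all genes. Hspa1a was at 1.92 to 6.21 RPM in IgG and 7.31 to 16.3 RPM in knockout tumours, and Hsph1 differed by 0.63. Hspd1 was called with a difference of 0.37 and lost that call in 17 of 24 alternative analyses. Among 4 histone genes tested, 1 was lower, H1f2 by -0.73. No mitochondrial genome gene was tested.

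Matrix genes were lower in IgG tumours or not called, with few exceptions. Of 16 fibrillar and network collagens, 5 were lower and none higher, and the summed level was 10447 to 12873 RPM in IgG tumours and 11691 to 26179 RPM in knockout tumours. Col1a1, the main collagen of connective tissue, was at 977, 1127, 996 and 1410 RPM in IgG tumours and at 4954, 3538, 1718, 4712 and 1541 RPM in knockout tumours (log2 difference -1.40, SE 0.36, limma adjusted p = 0.0158). Knockout libraries 3 and 5 lay close to the IgG range, and the adjusted p was 0.0787 without knockout libraries 2 and 4. Col5a2, a fibril-regulating collagen, differed by -2.02 and Col15a1, a collagen of the basement membrane zone, by -2.78. Col3a1 was 1656 to 2191 RPM in IgG and 1541 to 7441 RPM in knockout tumours with no call. The count of lower collagens was 3 without IgG library 1 and 1 without knockout libraries 2 and 4.

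Of 15 basement membrane genes, 8 were lower and none higher. Nid2, nidogen 2, was 6.38 to 11.7 RPM in IgG and 25.2 to 92.2 RPM in knockout tumours (log2 difference -2.29, SE 0.36, limma adjusted p = 0.00207), and the laminin chains Lama4 and Lamb3 differed by -2.20 and -4.04. The count was 4 without IgG library 1 or 3 and 5 without IgG library 4 or knockout library 4. Of 16 genes for collagen processing and cross-linking, 7 were lower and none higher. Lox and Loxl1, which cross-link collagen, differed by -2.25 and -2.55, and P4ha2, a prolyl hydroxylase, was 125 to 229 RPM in IgG and 254 to 439 RPM in knockout tumours (log2 difference -1.11). That count was 3 without knockout library 1, knockout library 4 or IgG library 1, and 4 without IgG library 3 or 4. Of 20 matrix glycoproteins and proteoglycans, 8 were lower and none higher, Spp1, osteopontin, at 84.7 to 111 RPM in IgG and 238 to 841 RPM in knockout tumours (log2 difference -2.26, SE 0.29, limma adjusted p = 0.000853). Fn1, fibronectin, differed by -2.05 and Thbs1, thrombospondin 1, by -2.13. Without knockout libraries 2 and 4, 5 glycoprotein genes were lower and 1 higher.

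Among 22 matrix proteases and their inhibitors, 13 were lower and 2 higher. Plat, tissue plasminogen activator, was at 92.1, 76.4, 93.0 and 94.7 RPM in IgG tumours and at 397, 170, 236, 289 and 283 RPM in knockout tumours, with no overlap. It differed by -1.58 (SE 0.21, limma adjusted p = 0.000983), or 2.98-fold lower. Mmp8, the collagenase of neutrophils, differed by -2.80. The tissue inhibitors Timp1 and Timp2 moved apart, Timp1 at 61.8 to 70.3 RPM in IgG and 140 to 560 RPM in knockout tumours (log2 difference -2.08) and Timp2 at 858 to 1297 RPM in IgG and 557 to 643 RPM in knockout tumours (log2 difference 0.81). Timp2 overlaps another coding gene on its own strand. Of 13 TGF-beta genes, 4 were higher and 2 lower, against 20.5% and 15.4% of all genes. The median of this list changed sign under upper-quartile scaling. The coreceptor Tgfbr3 differed by 0.97, and the latent binding proteins Ltbp1 and Ltbp2 by 0.79 and -1.77. The count of higher genes was 2 without IgG library 2, IgG library 4 or knockout library 5.

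Most endothelial and contractile genes were lower, unevenly over the knockout libraries. Of 15 endothelial markers tested, 13 were lower and none higher, with a median of -1.60, and their summed level was 427 to 483 RPM in IgG tumours and 1637, 1102, 591, 1266 and 591 RPM in knockout tumours. Tie1, a receptor of endothelial cells, was at 8.47, 11.6, 8.70 and 9.66 RPM in IgG tumours and at 86.3, 71.8, 26.3, 72.8 and 27.0 RPM in knockout tumours (log2 difference -2.39, SE 0.37, limma adjusted p = 0.00205). Egfl7 and Esam, also of endothelial cells, differed by -1.95 and -2.21, and Cdh5, their cadherin, by -1.60. The count was 8 without any one of IgG libraries 1, 3 and 4 or knockout libraries 2 and 4, and 5 without both of those knockout libraries. Of 12 contractile and mural cell genes, 8 were lower and none higher, Cspg4, a pericyte proteoglycan, at 2.03 to 2.85 RPM in IgG and 8.13 to 21.5 RPM in knockout tumours (log2 difference -2.63, SE 0.28, limma adjusted p = 0.000338). Tagln differed by -2.49 and Notch3 by -2.25, and the count was 5 without IgG library 3 and 5 without knockout libraries 2 and 4. Of 15 fibroblast markers, 5 were lower and none higher, among them Pdpn, podoplanin, by -2.0 and Meox1 by -2.23, and 3 were lower and 1 higher without knockout libraries 2 and 4.

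Genes of tissues around a graft differed between libraries as well as between groups. The summed level of 11 adipocyte markers was 38.2, 93.1, 37.5 and 60.7 RPM in IgG tumours and 636, 6030, 301, 3400 and 147 RPM in knockout tumours. Of the 11, 7 averaged at least 0.5 RPM in both groups, and the rest passed the filter through 1 group alone. The number called lower was 10, with a median of -4.96. The count was 5 without IgG library 1, 4 without IgG library 3 and 3 without knockout libraries 2 and 4. Fabp4, a fatty acid carrier of adipocytes, was 20.3 to 40.5 RPM in IgG and 113 to 1971 RPM in knockout tumours. Adipoq, adiponectin, was 0.0989 to 3.07 RPM in IgG and 2.29 to 464 RPM in knockout tumours, and Plin1, a lipid droplet protein, was 0.0495 to 0.981 RPM in IgG and 0.561 to 88.3 RPM in knockout tumours. Lep, leptin, had 3 reads in all 4 IgG libraries and 0.140 to 55.9 RPM in knockout tumours. G0s2, a brake on fat breakdown, differed by -5.00, and Hp, haptoglobin, which fat tissue makes in mice, was 1.48 to 4.42 RPM in IgG and 19.9 to 1955 RPM in knockout tumours, highest in libraries 2 and 4.

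Skeletal muscle genes were called higher in IgG tumours in 3 of 15, near the 20.5% of all genes, and lower in none, with wide spread. The groups overlapped in each of these 15 genes. Their summed level was 1715, 8967, 217 and 573 RPM in IgG tumours and 17.3, 19.0, 298, 10.7 and 3556 RPM in knockout tumours. Acta1, skeletal actin, overlapped between the groups and was not called (adjusted p = 0.14). Myh4 and Myh2, fast myosins, differed by 5.91 and 4.79, Ckm, the muscle creatine kinase, by 4.73, and Pvalb, parvalbumin, by 6.34. Ckm lost its call in 14 of 24 alternative analyses. The count of muscle genes called higher was 15 without knockout library 5 and 1 without IgG library 1 or IgG library 2. It was 0 without knockout libraries 2 and 4. Keratinocyte and skin genes were lower in 6 of 11 and higher in none. Only 3 of the 11 averaged at least 0.5 RPM in both groups, and the rest passed the filter through 1 group alone. Krt14, a basal keratin, was 0 to 0.274 RPM in IgG tumours and 16.2, 10.8, 321, 11.1 and 11.6 RPM in knockout tumours (log2 difference -6.69, SE 0.97, limma adjusted p = 0.0015), Krt17 differed by -5.49 and Col17a1 by -2.51. Krt5, the partner of Krt14, was at most 0.172 RPM in IgG tumours and reached 264 RPM in knockout library 3. The part of admixed fat, muscle or skin in the other results was not tested. The ribosomal RNA gene Rn45s took 0.361 to 2.30% of reads in IgG and 0.329 to 4.95% in knockout libraries, and leaving it out of the scaling gave 4928 calls in place of 5032.

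**Figure D4:**
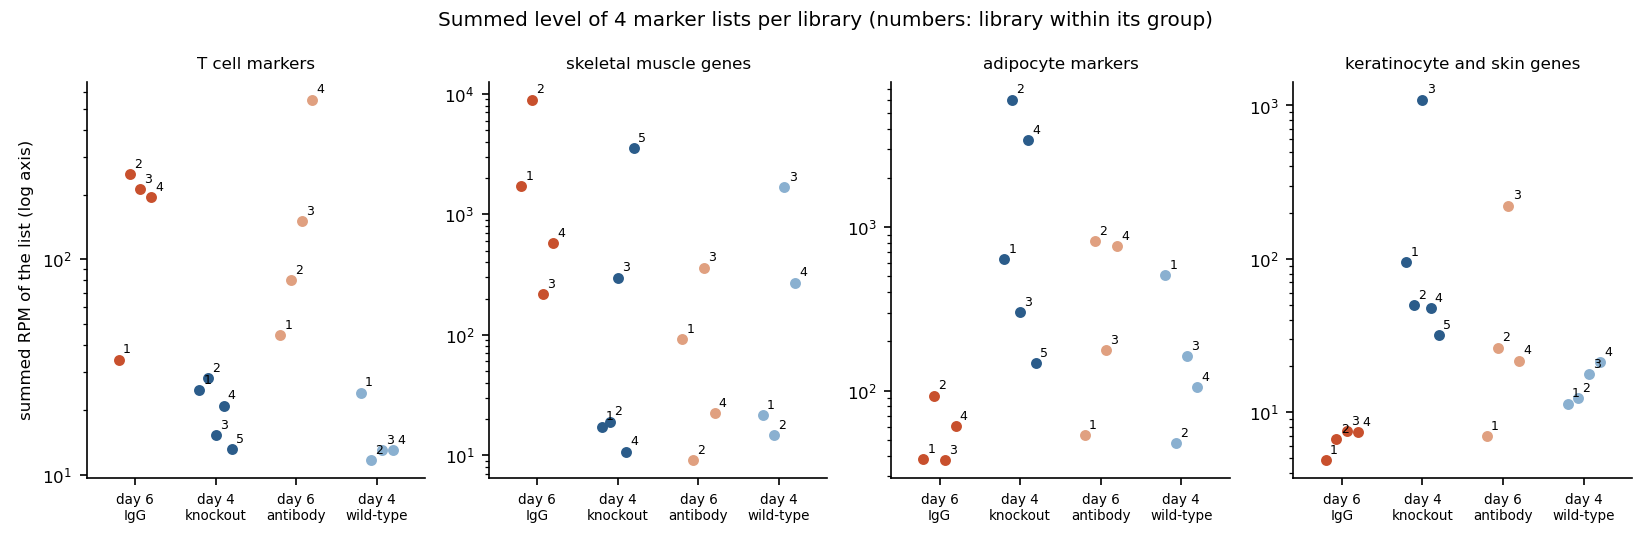
Summed RPM of T cell, skeletal muscle, adipocyte and keratinocyte lists on log axes, with 1 numbered point per library, for day 6 IgG, day 4 knockout, day 6 antibody and day 4 wild-type tumours. T cell sums of both day 6 groups lie above those of both day 4 groups, while muscle and adipocyte sums overlap between most groups and knockout libraries 2 and 4 are the highest of all in adipocyte genes.

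Epithelial genes were lower in IgG tumours or not called. Of 17 luminal epithelial genes, 8 were lower and none higher, with 13 lower in edgeR and 14 without knockout library 5. Without knockout libraries 2 and 4 the count was 4 of 15. In both groups 9 of the 17 averaged at least 0.5 RPM, and the rest passed the filter through 1 group alone. Krt8, a keratin of simple epithelia, was at 202, 177, 186 and 194 RPM in IgG tumours and at 364, 432, 495, 485 and 689 RPM in knockout tumours (log2 difference -1.35, SE 0.16, limma adjusted p = 0.000584). Its usual partner Krt18 was 0.103 to 1.18 RPM in IgG and 26.1, 47.6, 1.68, 31.6 and 9.39 RPM in knockout tumours (log2 difference -4.85, SE 0.92, limma adjusted p = 0.00469), and Krt19 followed it, at -4.85. Knockout libraries 1, 2 and 4, the highest in both, were also the highest in adipocyte genes, and whether normal mammary tissue contributed was not tested. Elf3, an epithelial transcription factor, differed by -2.03, and Epcam overlapped between the groups with no call. Anxa8, an annexin, was 0 to 1.01 RPM in IgG and 8.69 to 18.0 RPM in knockout tumours (log2 difference -4.98, SE 0.66, limma adjusted p = 0.000984). Among 10 mesenchymal transition genes, 2 were higher and 3 lower, against 20.5% and 15.4% of all genes. Zeb2 differed by 1.02, Snai1 by -0.63 and Snai2 by -1.75. Alas2, a haem enzyme of red cell precursors, was at 18.5, 0.327, 0.148 and 0.550 RPM in IgG and 11.9 to 78.2 RPM in knockout tumours, and was not called by edgeR (adjusted p = 0.0944).

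A list of genes that had set knockout derivatives apart from wild-type cells elsewhere in these data had calls in both directions. The list had been chosen on libraries of this series, so it is not independent evidence of a direction. Of 14 tested, 3 were higher and 3 lower, with 5 lower when knockout library 3 was left out. The shares over all genes were close to this, at 20.5% and 15.4%, and the list median was 0.04, or -0.09 with upper-quartile scaling. Syt16, a synaptotagmin, was at 6.20, 5.33, 8.01 and 6.73 RPM in IgG tumours and at 4.76, 4.44, 4.96, 6.28 and 6.12 RPM in knockout tumours, with no call (log2 difference 0.30, SE 0.19), against 0.199 to 0.683 RPM in day 4 wild-type tumours. Espn, an actin-bundling protein, was at 1.37, 2.49, 3.36 and 3.85 RPM in IgG and 3.6 to 6.12 RPM in knockout tumours, with no call here, against 18.9 to 24.0 RPM in wild-type tumours. Prr19 was 0.0989 to 0.275 RPM in IgG and 1.86 to 5.96 RPM in knockout tumours (log2 difference -3.76, SE 0.38, limma adjusted p = 0.000264), and 18.8 to 30.3 RPM in wild-type tumours. Prr19 was under 0.5 RPM in every IgG library and passed the filter through the knockout group alone. Nptx1, a pentraxin, went the other way, at 187 to 321 RPM in IgG and 59.6 to 105 RPM in knockout tumours (log2 difference 1.59), and Tmed5, a cargo receptor, differed by 0.80.

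The antibody and wild-type tumours gave the same day and table contrast with other libraries. They are no repeat of the first pair, since the antibody replaces IgG and Ddr1 wild-type cells replace knockout cells. Of 13800 genes tested, 1679 (12.2%) were higher and 1046 (7.58%) lower in antibody tumours. Of 13680 genes tested in both comparisons, 1688 were called in the same direction in both, which is 34.2% of the 4933 calls between IgG and knockout tumours and 62.5% of the 2700 calls between antibody and wild-type tumours, and 17 were called in opposite directions. The second comparison had 2725 calls in all, but 1406 when wild-type library 4 was left out, 1629 for wild-type library 2, 1756 for wild-type library 3 and 1705 for antibody library 3.

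By list, the second comparison had 11 of 13 T cell markers, 26 of 32 interferon genes, 13 of 14 MHC class I, 9 of 10 MHC class II and 19 of 19 cholesterol genes higher in antibody tumours, and 19 of 19 hypoxia and 9 of 12 neutrophil genes lower. Cd8a was at 5.18, 9.24, 18.1 and 77.5 RPM in antibody tumours and at 0.252, 0.172, 0.0496 and 0.0427 RPM in wild-type tumours (log2 difference 6.25). It was under 0.5 RPM in every wild-type library and passed the filter through the antibody group alone. Car9 was at 3.47, 3.25, 3.76 and 3.67 RPM in antibody tumours and at 88.6, 110, 105 and 90.5 RPM in wild-type tumours (log2 difference -4.76). Other lists differed in their counts. Endothelial markers were lower in 1 of 15, adipocyte genes in none and ribosomal protein genes in 1 of 24. No muscle gene was called in either direction, against 3 higher in the first comparison, with medians of -0.83 and 3.72. Luminal epithelial genes were higher in 7 and lower in 2 of 17. Their list mean of log2(RPM + 0.1) was uneven, at -0.09, 3.07, 0.93 and 4.14 in antibody libraries 1 to 4. Antibody libraries 2 and 4 were also the highest of that group in adipocyte genes. Over all genes, 7.58% were lower here and 15.4% in the first comparison, so such counts are not alike. The test of the difference, given below, called no endothelial, adipocyte, muscle or ribosomal protein member, and 1 luminal gene lower.

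The difference of the 2 comparisons was tested over all 17 libraries. It equals IgG minus antibody within the day 6 table less knockout minus wild-type within the day 4 table, so a scale shared by a table drops out of it. Of 13932 genes, 2 (0.0144%) were called higher and 15 (0.108%) lower, while edgeR called 53, DESeq2 484, and 2497 had an unadjusted p under 0.05. The 2 counted as higher were Espn, at 2.17 (limma adjusted p = 0.0389), and Ddr1, at 1.93, whose value follows from the choice of groups low in it and is no test. The log2 difference of antibody and wild-type tumours was -3.03 for Espn and -2.77 for Ddr1. Syt16 had a difference of -3.27 (SE 0.39, limma adjusted p = 0.00398), with 4.11 to 8.31 RPM in antibody tumours and 0.199 to 0.683 RPM in wild-type tumours. Krt14 differed by -9.13, the adhesion molecule Cxadr by -6.78, the phosphatase Ptprf by -3.90 and 3830417A13Rik by -3.71 (limma adjusted p = 0.0311 each). Krt18 differed by -8.85 (SE 1.63, limma adjusted p = 0.0442). The summed keratinocyte list was 6.92 to 222 RPM in antibody tumours, highest in library 3, and 11.3 to 21.1 RPM in wild-type tumours.

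No other named gene was called in that difference, which does not show that their changes were alike. The number of calls depended on single libraries. It was 2 in fits that left out 1 of IgG libraries 3 and 4, antibody libraries 2 and 4, knockout libraries 1 and 4, or wild-type libraries 2, 3 and 4. Leaving out IgG library 1 gave 5 calls, wild-type library 1 gave 6 and knockout library 2 gave 7. More were called when knockout library 3 (28), knockout library 5 (61) or antibody library 1 (81) was left out.

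**Figure D5:**
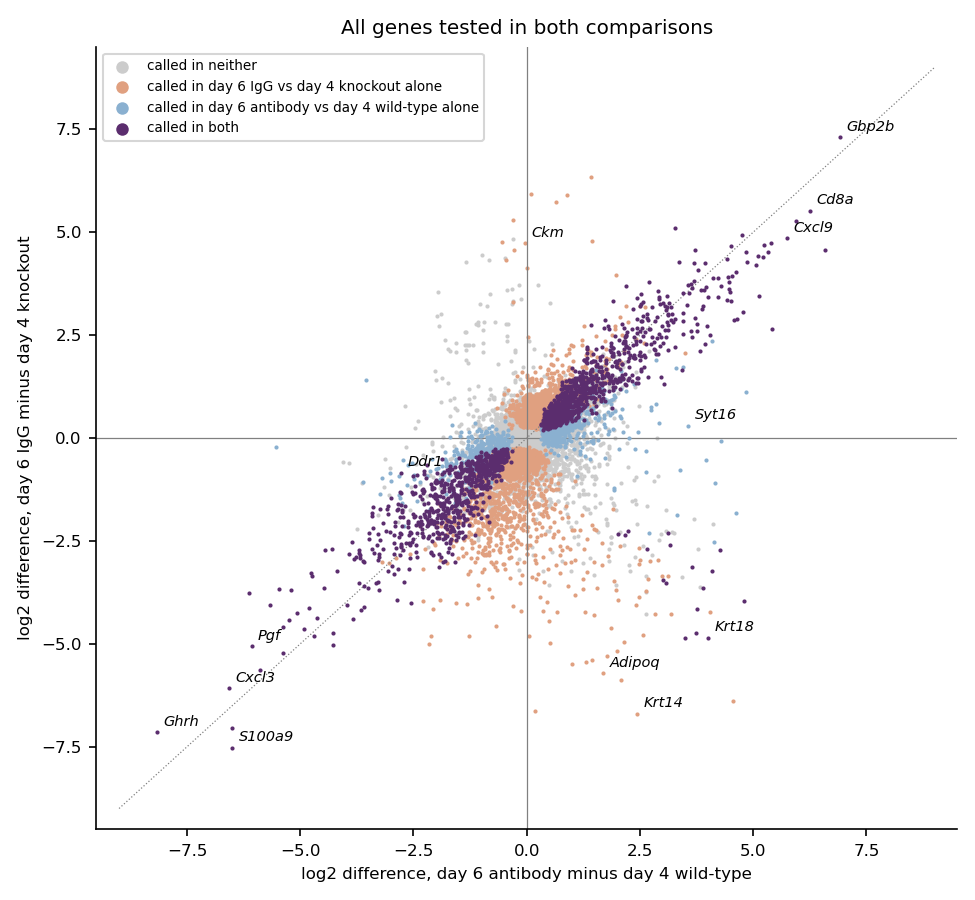
Log2 difference of every gene tested in both comparisons, with antibody minus wild-type tumours on the x axis and IgG minus knockout tumours on the y axis. Purple points are called in both, orange and blue points in 1 alone and grey points in neither, and the dotted line marks equal differences. Gbp2b, Cd8a, Cxcl9, Pgf, Cxcl3, Ghrh and S100a9 lie near that line, while Ckm, Adipoq, Krt14, Krt18, Syt16 and Ddr1 lie off it.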

How the data were processed

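The deposited values were gene counts divided by a size factor for each library, a signal in which the authors scaled the day 6 and day 4 tables separately. Per the submitters' processing notes, CASAVA, TopHat and DESeq2 were used with the mouse build mm10, with no version stated in those notes. Per the labels' protocols, RNA was extracted with Trizol and made into stranded mRNA libraries. Values in the 17 libraries used here were whole multiples of 1 step within a tolerance of 0.01 reads, and dividing by that step recovered the reads. The tables shared 25277 gene symbols. Each library was scaled to 1000000 recovered reads (RPM), and 3 reads stand for 0.0981 to 0.148 RPM in IgG and 0.105 to 0.144 RPM in knockout libraries.

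Genes with a mean of at least 0.5 RPM over the libraries compared were tested on log2(RPM + 0.1) with limma 3.58.1 and a trend (R 4.3.3), two-sided, with Benjamini-Hochberg adjustment over all genes tested and a threshold of 0.05. Other settings changed the scaling, pseudocount, filter or libraries, or used edgeR 4.0.16 and DESeq2 1.42.0 on the recovered reads. The scripts were tested on simulated data. Tables and figures were made with Python 3.11.15 and matplotlib 3.10.9.

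Ddr1 was named first. Next came the 12 strongest rises and the 12 strongest falls that were called, averaged 5 RPM or more, did not overlap between groups and had an established symbol (no predicted genes, clones or receptor segments). Each list then gave up to 3 called members, taken by p, that averaged 1 RPM or more. The difference of the comparisons gave up to 5 called genes per direction, taken by p with that same minimum. Some genes that this rule picks are not reported here. A further 29 genes were named after their values had been seen, namely Foxp3, Ctla4, Cd4, Tcf7, Gbp2, Cxcl10, H2-Aa, Cd74, B2m, Gzma, Gzmd, Gzmg, Slc2a1, Vegfa, Ldha, Idi1, Mvk, Cdh5, Adipoq, Acta1, Ddr2, Col3a1, Timp1, Timp2, Cxcl12, Krt5, Krt19, Epcam and Hspa5. Of 623 genes in 41 lists, 596 were found in the tables, and 566 were tested. The comparison, its members and the lists were chosen with earlier results of these data known. Of the 156 named genes 26 overlap another coding gene.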

Additional observations from a re-analysis of the deposited data

Results flagged for a closer look

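Within the groups, 21 values of 312 groups of libraries lay far from the rest of their group by Dixon's test, and chance flags about 1 in 20 groups. IgG library 1 gave 9 of them, knockout library 5 gave 4, IgG library 2 gave 3, knockout library 3 and IgG library 3 gave 2 each, and IgG library 4 gave 1.

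IgG library 1 stood apart in this way as the lowest of its group for 8 immune genes. It had 3.26 RPM of Cd3g, where the other IgG libraries had 21.6 to 31.3 RPM, and 1.27 RPM of Cd3e. Prf1 was at 5.04 RPM, Ifng at 0.377 RPM, Klrc1 at 0.994 RPM, Klrk1 at 8.36 RPM and Gzma at 5.28 RPM in that library. Cd274 was at 64.3 RPM there, against 132 to 140 RPM in the other IgG libraries. It was the highest of its group for Krt17, at 0.137 RPM, a value of few reads, since 3 reads stand for 0.103 RPM there.

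Knockout library 5 was the highest of its group for Ddr1, at 49.7 RPM, and the lowest for Cd8a at 0.0934 RPM, Gzmd at 1.59 RPM and Gzmg at 0.374 RPM. That Cd8a value was under the 0.140 RPM that 3 reads stand for in this library. Knockout library 3 was the highest for Krt14, at 321 RPM, where the other knockout libraries had 10.8 to 16.2 RPM, and the lowest for Snai2, at 1.59 RPM. IgG library 2 was the lowest for Plat at 76.4 RPM and Ccnd1 at 624 RPM and the highest for Timp1 at 70.3 RPM. IgG library 3 was the lowest for Lama4 at 10 RPM and the highest for Rplp0 at 903 RPM. IgG library 4 was the highest for Krt5, at 0.172 RPM, again few reads, since 3 reads stand for 0.103 RPM there.

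In 7 named genes the difference between IgG and knockout tumours was called different from that between antibody and wild-type tumours, in limma over 17 libraries. On the log2 scale this was 2.17 for Espn, -3.27 for Syt16, -9.13 for Krt14, -8.85 for Krt18, -3.71 for 3830417A13Rik, -6.78 for Cxadr and -3.90 for Ptprf. For Ddr1 the value was 1.93, a description with no test, since the groups were chosen with their low Ddr1 known. No explanation was tested for any of these values. Over all genes this test gave 17 calls, and 2 in several fits that left out 1 library, so most of the 7 lost their call there.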

How the results depend on the processing

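Between IgG and knockout tumours, 5032 genes were called, 2748 without knockout libraries 2 and 4 and between 3153 and 5220 when 1 library was left out. The second comparison had 2725 calls, between 1406 and 2617 when 1 library was left out, and 1132 with a replicate block. The difference of the comparisons had 17 calls, 484 with DESeq2, 53 with edgeR, 6 with a filter at a mean of 2 RPM, 7 with a pseudocount of 1, and between 2 and 81 when 1 library was left out. No named gene reversed its direction. Upper-quartile scaling changed the sign of the medians of the p53 and TGF-beta lists, at -0.02 and -0.01 in place of 0.11 and 0.12, and of all genes, at -0.06 in place of 0.07. The median of the unfolded protein response list also changed sign, at -0.05 in place of 0.08. So did that of the genes marking knockout derivatives, at -0.09 in place of 0.04. Of 146 named genes called, 124 kept their call in all 24 alternative analyses, and 17 lost it without knockout libraries 2 and 4, which were left out, like the 2 libraries highest in muscle genes and the gene Rn45s, after the data had been seen. The cause was not tested. Libraries with the same number correlated at -0.077, 0.112, 0.274 and 0.397 in their deviations, so the numbers were not taken to pair the tumours, and not every library correlated best with its own number. A replicate block gave 5391 calls between IgG and knockout tumours. No block was fitted for the difference of the comparisons. Depth limits the weakest genes, where 3 reads stand for 0.0755 to 0.149 RPM over the 17 libraries.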
